A study of Mus musculus with 4 samples.

Results

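The co-receptors of the TGF-beta superfamily examined here are the products of 6 mouse genes: Eng (endoglin), Tgfbr3 (betaglycan), Rgma and Rgmb (repulsive guidance molecules), Neo1 (neogenin) and Tdgf1 (Cripto). Their members were taken as all probe sets annotated to one of these symbols alone, which gave 17 of the 45037 probe sets on the array. Rgmb had 6 probe sets, Neo1 5, Eng and Tgfbr3 2 each, and Rgma and Tdgf1 1 each. The values come from C3H10T1/2 cells, a mouse line labelled as mesenchymal stem cells, that received 100 ng/ml recombinant human BMP3, a secreted ligand of the superfamily, for 6 hours (2 arrays), or were left untreated (2 arrays). Both groups were grown under standard culture conditions, and the labels call the arrays of a group biological replicates without saying how the cultures were kept apart, so each p-value measures only the spread between these arrays. Each array gave 1 value per probe set, read as a log2 intensity.

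Ligands of this superfamily signal through pairs of type I and type II receptor kinases that phosphorylate SMAD transcription factors. Co-receptors bind ligand at the cell surface without a kinase of their own and change how well a ligand reaches that receptor pair. Endoglin and betaglycan are related transmembrane glycoproteins. Endoglin, also known as CD105, binds BMP9 and BMP10, is abundant on endothelium and is widely used as a surface marker of mesenchymal stromal cells. Betaglycan presents TGF-beta, above all TGF-beta2, to its receptors and is needed for high-affinity binding of inhibin. Repulsive guidance molecules are anchored to the membrane by a lipid, bind BMPs and are ligands of neogenin, which is also a netrin receptor. Cripto is a lipid-anchored co-receptor of Nodal that is characteristic of early embryos and pluripotent cells.

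Promoter sequences were matched by symbol for 4 of the 6 genes in RefSeq (GRCm38.p6), as 250 bases before to 50 bases after an annotated start. One start of each is printed, 5' to 3' on the gene's strand, so that the 3 genes with a bright probe set can be read beside Tdgf1, whose probe set was dim. Capitals mark CAGAC and GGCGC on either strand (GTCTG and GCGCC on the other), short letter runs of the kinds that SMAD proteins bind. No CAGAC match overlapped a GGCGC match in these windows.
Eng, chr2:32646345-32646644, + strand: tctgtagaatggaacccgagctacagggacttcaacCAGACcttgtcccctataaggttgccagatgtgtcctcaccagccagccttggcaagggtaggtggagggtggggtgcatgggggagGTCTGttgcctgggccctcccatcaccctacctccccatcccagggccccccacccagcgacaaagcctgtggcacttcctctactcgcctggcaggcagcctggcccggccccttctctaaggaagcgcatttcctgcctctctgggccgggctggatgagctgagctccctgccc
Rgmb, chr17:15831197-15831496, - strand: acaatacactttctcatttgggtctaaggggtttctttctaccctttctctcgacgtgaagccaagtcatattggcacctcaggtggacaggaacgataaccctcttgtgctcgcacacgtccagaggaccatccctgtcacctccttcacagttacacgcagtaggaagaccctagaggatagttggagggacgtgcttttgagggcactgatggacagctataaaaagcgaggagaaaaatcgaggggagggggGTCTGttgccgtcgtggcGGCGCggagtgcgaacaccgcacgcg
Neo1, chr9:59036392-59036691, - strand: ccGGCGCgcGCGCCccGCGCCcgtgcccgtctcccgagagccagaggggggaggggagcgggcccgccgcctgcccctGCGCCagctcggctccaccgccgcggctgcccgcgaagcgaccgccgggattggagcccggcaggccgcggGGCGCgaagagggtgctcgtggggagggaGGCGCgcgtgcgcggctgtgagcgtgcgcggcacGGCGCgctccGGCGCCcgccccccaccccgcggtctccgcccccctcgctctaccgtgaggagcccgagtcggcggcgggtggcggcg
Tdgf1, chr9:110946109-110946408, - strand: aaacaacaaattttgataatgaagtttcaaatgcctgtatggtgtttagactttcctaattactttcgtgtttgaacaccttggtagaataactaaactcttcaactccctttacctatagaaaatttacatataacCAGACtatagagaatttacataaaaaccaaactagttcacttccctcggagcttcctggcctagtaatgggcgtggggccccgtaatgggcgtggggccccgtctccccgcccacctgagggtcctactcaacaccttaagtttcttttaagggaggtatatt

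The 4 windows differed in base composition. The Neo1 window was 82.7% G or C and held 54 CpG pairs, more than 99.7% of the 32851 RefSeq promoter windows of this length. The Rgmb window was 54.0% G or C with 18 CpG pairs, the Eng window 63.3% with 6, and the Tdgf1 window 41.7% with 7, beside medians of 52.7% and 7 over all windows. CAGAC occurred 2 times in the Eng window, 1 time in the Rgmb window and 1 time in the Tdgf1 window, and 49.6% of all windows held it. GGCGC occurred 9 times in the Neo1 window and 1 time in the Rgmb window, and 36.9% of all windows held it. Rgmb has other annotated starts, and the window of one of them (chr17:15831016-15831315) held 5 GGCGC matches. The window of another (chr17:15826517-15826816) held 0 matches of either kind. These matches describe letters in a window and not bound sites.

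Arrays had median log2 values of 3.36 and 3.31 (BMP3) and 3.35 and 3.40 (control). A probe set is called bright here where its mean over the arrays reached a log2 value of 6, and a probe set below the median of every array enters counts over all probe sets but is not read as a difference of its gene. The line's identity was checked against markers. Of 9 measured mesenchymal genes 8 were bright, Eng itself, Thy1, Pdgfra, Pdgfrb, Col1a1, Col1a2 and Vim among them, while Nt5e (CD73) stood below the median of every array. Poly-A spike-ins, which are added to the RNA before labelling, were lower in BMP3 arrays (Dap 9.13 and 8.85) than in control arrays (10.39 and 9.86), and Phe, Lys and Thr lay the same way. The probe sets of 18S ribosomal RNA averaged 8.99 and 9.90 in BMP3 arrays and 11.41 and 10.50 in control arrays. Their part in the results below was not tested.

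Of the 17 probe sets, 10 had higher and 7 lower means in BMP3 arrays, and none of these differences passed limma's adjusted p threshold of 0.05 (0 of 17, background 0% of all probe sets, adjusted p from 0.287 to 0.998). At an unadjusted p under 0.05, limma counted 2 of the 17, Rgma higher and 1 Neo1 probe set lower, beside 8.39% of all probe sets (3.7% higher and 4.69% lower). Both were among the 11 bright members, and 19% of bright probe sets on the array passed that unadjusted threshold. Rgma alone also had a fold of at least 1.5, which 0.808% of all probe sets had upward and 2% downward. The groups did not overlap at 6 of the 17 probe sets (4 higher, 2 lower), beside 36.3% of all probe sets (12.9% higher and 23.3% lower). Among the 11 bright members this was so of 4 (2 higher, 2 lower), beside 48.6% of bright probe sets. Counts of this size on 17 probe sets lie near the background.

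**Figure D1:**
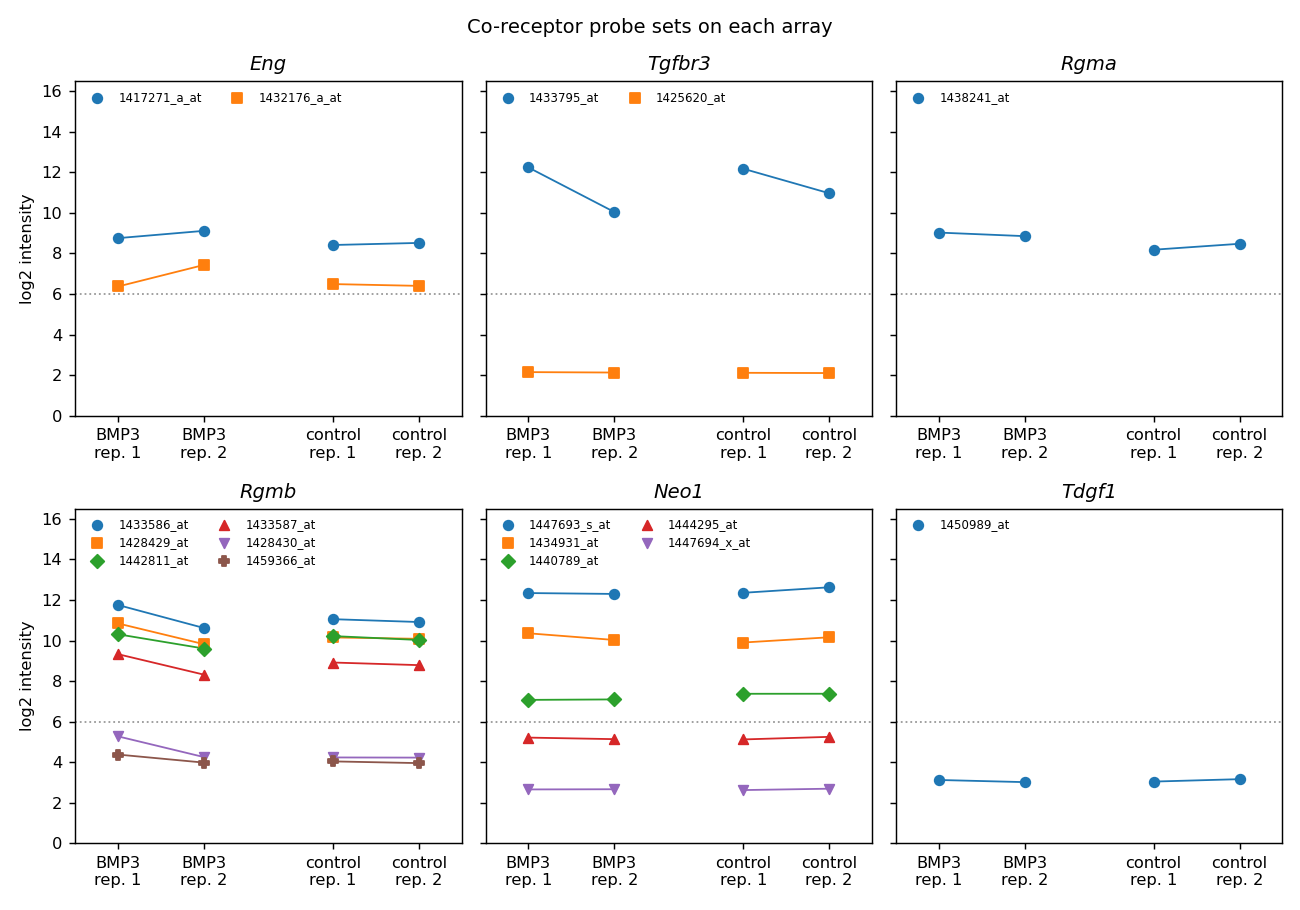
Log2 intensity of each co-receptor probe set on each array, BMP3 arrays at the left and control arrays at the right of each panel, with a line joining the 2 arrays of a group and a dotted line at 6. Rgma lies higher on both BMP3 arrays, the bright Tgfbr3 probe set is lower on replicate 2 of each group, and the bright Rgmb probe sets are spread apart between the BMP3 arrays.

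Among the repulsive guidance molecules, Rgma had the clearest separation of groups. Its probe set, 1438241_at, read 9.03 and 8.85 in BMP3 arrays and 8.18 and 8.48 in control arrays. Both BMP3 values lay above both control values. The means were 8.94 ± 0.12 in BMP3 arrays and 8.33 ± 0.21 in control arrays (SD, n = 2 each), a log2 difference of 0.61 with a standard error (SE) of 0.14 and a 95% confidence interval of 0.18 to 1.04. That is 1.53-fold, with an unadjusted p of 0.0196 and a limma adjusted p of 0.445. Rgma encodes a BMP co-receptor and neogenin ligand first studied in axon guidance, and it lies at chr7:73375520-73419899 (GRCm38.p6). The difference stayed between 0.46 and 0.76 when any 1 array was left out.

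Rgma is known best from the nervous system, and the neural marker list was examined for that reason. Of its 6 genes, Map2, Nes and Stmn2 were bright, and the mean log2 level of the list was 7.01 and 6.95 in BMP3 arrays and 6.62 and 6.88 in control arrays. Stmn2, which encodes a microtubule-binding protein, differed by 0.26 ± 0.06 (log2 difference ± SE), Tubb3, a neuronal tubulin, by 0.50 ± 0.10, Nes by 1.33 ± 0.66 and Map2 by -0.79 ± 0.08. Gfap stood below the median of every array. Their part in the Rgma difference was not tested.

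Rgmb, also called DRAGON, encodes the second repulsive guidance molecule measured and lies at chr17:15804661-15831246. Its 4 bright probe sets shared a pattern in which BMP3 replicate 1 was the highest array, BMP3 replicate 2 the lowest and both control arrays lay between. The brightest, 1433586_at, read 11.75 and 10.62 in BMP3 arrays and 11.06 and 10.92 in control arrays. The probe set 1428429_at read 10.84 and 9.82 in BMP3 arrays and 10.15 and 10.09 in control arrays. At 1433587_at the values were 9.33 and 8.32 in BMP3 arrays and 8.92 and 8.79 in control arrays. The groups overlapped at each of these, and at 1442811_at as well (10.31 and 9.61 in BMP3 arrays, 10.22 and 10.03 in control arrays).

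The SD of these 4 Rgmb probe sets ran from 0.50 to 0.80 in BMP3 arrays and from 0.05 to 0.14 in control arrays (n = 2 each). Their log2 differences were 0.20 ± 0.45, 0.21 ± 0.41, -0.03 ± 0.40 and -0.17 ± 0.29 (± SE), in the order in which the probe sets are named, with limma adjusted p from 0.948 to 0.996. The interval of the brightest ran from -1.20 to 1.60, so these arrays leave room for a difference of more than 1 log2 unit either way. Without BMP3 replicate 1 its difference was -0.37, and without BMP3 replicate 2 it was 0.77. The 4 probe sets read the same RNA samples and are not independent of each other. The 2 dim Rgmb probe sets, 1428430_at and 1459366_at, averaged 4.50 and 4.09 over the 4 arrays and were likewise highest on BMP3 replicate 1.

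Endoglin was higher on both BMP3 arrays at 1 of its 2 probe sets. At 1417271_a_at, Eng read 8.75 and 9.11 in BMP3 arrays and 8.42 and 8.52 in control arrays. The groups did not overlap. The means were 8.93 ± 0.25 in BMP3 arrays and 8.47 ± 0.07 in control arrays (SD, n = 2 each), a log2 difference of 0.47 with an SE of 0.15 and a confidence interval of -0.0017 to 0.94. This is 1.38-fold, with an unadjusted p of 0.0505 and a limma adjusted p of 0.597. Without BMP3 replicate 2 the difference was 0.29 and without BMP3 replicate 1 it was 0.65.

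The second Eng probe set, 1432176_a_at, read 6.37 and 7.43 in BMP3 arrays and 6.49 and 6.40 in control arrays. Only BMP3 replicate 2 stood apart, and the groups overlapped. The difference was 0.46 with an SE of 0.42 (adjusted p = 0.898 by limma), and without BMP3 replicate 2 it was -0.08. Eng belongs to the mesenchymal marker list, of whose 9 measured genes 4 were higher and 5 lower. Thy1 (0.73 ± 0.10, log2 difference ± SE) and Cd44 (0.64 ± 0.19) were higher on both BMP3 arrays. Pdgfra (-0.73 ± 0.52) and Pdgfrb (-0.30 ± 0.20) had lower means. Since Eng, at chr2:32646595-32682669, is also abundant on endothelium, endothelial markers were examined beside it. Of 8 such genes 6 stood below the median of every array, Pecam1, Cdh5 and Kdr among them, and Tek and Egfl7 were bright. Tek, an angiopoietin receptor gene, read 5.78 and 6.25 in BMP3 arrays and 8.74 and 8.52 in control arrays. At its brightest probe set Egfl7 read 7.26 and 6.97 in BMP3 arrays and 7.34 and 7.25 in control arrays. The Egfl7 probe set 1435823_x_at differed by -0.28 with overlapping groups. Another, 1421335_a_at, was higher on both BMP3 arrays (6.09 and 6.11, against 5.85 and 6.00 in control arrays). The mean log2 level of the list was 3.21 and 3.20 in BMP3 arrays and 3.58 and 3.55 in control arrays, a gap that came mostly from Tek. The part of either marker list in the Eng difference was not tested. In such bulk RNA, fewer cells of a type and less RNA per cell cannot be told apart.

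Betaglycan varied more between replicates than between groups. The bright Tgfbr3 probe set, 1433795_at, read 12.24 and 10.04 in BMP3 arrays and 12.18 and 10.97 in control arrays. Replicate 1 was the higher array in each group, and replicate 2 minus replicate 1 was -2.20 log2 units in BMP3 arrays and -1.21 in control arrays. The means were 11.14 ± 1.55 in BMP3 arrays and 11.57 ± 0.85 in control arrays (SD, n = 2 each), which differ by -0.43 (SE 0.99, interval -3.50 to 2.64, adjusted p = 0.961 by limma). Its direction turned with the array left out: dropping BMP3 replicate 1 gave -1.53 and dropping BMP3 replicate 2 gave 0.66, while dropping control replicate 1 gave 0.17 and dropping control replicate 2 gave -1.04.

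Other probe sets had gaps of this kind. Of 17152 bright probe sets, 83 (0.484%) were lower by at least 1 log2 unit on replicate 2 than on replicate 1 in both groups, and 177 (1.03%) were at least that far apart in the same direction, either way, in both groups, a threshold chosen after the Tgfbr3 values were seen. The labels do not say whether a replicate number marks a shared day or batch. The other Tgfbr3 probe set, 1425620_at, stayed between 2.10 and 2.15 on the 4 arrays, below the median of each, and gives no reading of the gene, which lies at chr5:107106567-107289629.

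**Figure D2:**
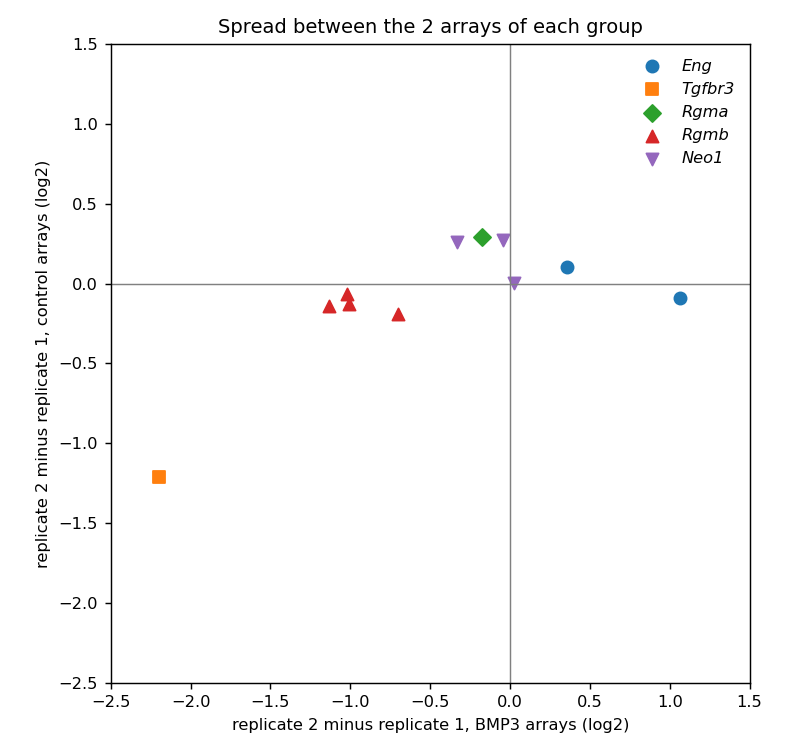
Replicate 2 minus replicate 1 on the log2 scale in BMP3 arrays (x axis) and in control arrays (y axis), 1 point for each bright co-receptor probe set. Tgfbr3 lies at -2.20 and -1.21, and the 4 Rgmb points lie between -1.13 and -0.70 in BMP3 arrays but between -0.19 and -0.07 in control arrays.

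Neogenin, the receptor of both repulsive guidance molecules, differed little, and its bright probe sets did not point one way. At 1447693_s_at, the brightest, Neo1 read 12.34 and 12.30 in BMP3 arrays and 12.36 and 12.63 in control arrays, which is -0.17 ± 0.11 as a log2 difference and its SE (adjusted p = 0.869 by limma). The BMP3 values lay just under the lower control value. At 1434931_at it read 10.36 and 10.03 in BMP3 arrays and 9.90 and 10.16 in control arrays, with overlapping groups and a difference of 0.16 ± 0.17 (limma adjusted p = 0.909). Without BMP3 replicate 1 this difference was -0.0034.

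The third bright Neo1 probe set, 1440789_at, had the smallest unadjusted p of the 17. It read 7.08 and 7.10 in BMP3 arrays and 7.38 and 7.38 in control arrays. The arrays of each group lay within 0.023 log2 units of each other, and the groups did not overlap. The log2 difference was -0.29 ± 0.03 (SE), with an interval of -0.40 to -0.18, an unadjusted p of 0.00283 and a limma adjusted p of 0.287. At 0.818-fold it was smaller than the Rgma and Eng differences, and with 2 arrays a group an SE this small can understate the spread. Of the remaining Neo1 probe sets, 1444295_at stayed between 5.13 and 5.25, and 1447694_x_at, whose name marks probes that can match other transcripts, stayed below the median of every array. Neo1 lies at chr9:58874679-59036614.

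Cripto gave no reading above the bulk of dim probe sets. The Tdgf1 probe set, 1450989_at, read 3.13 and 3.02 in BMP3 arrays and 3.05 and 3.17 in control arrays. Each of these lay under the median of its array. For scale, the bacterial tryptophan control probe sets averaged between 2.48 and 2.54 on the 4 arrays. The pluripotency markers Pou5f1, Nanog, Zfp42, Dppa5a, Utf1 and Lin28a also stood below the median of every array. Tdgf1 lies at chr9:110939608-110946158, and its values are not read as a difference.

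**Figure D3:**
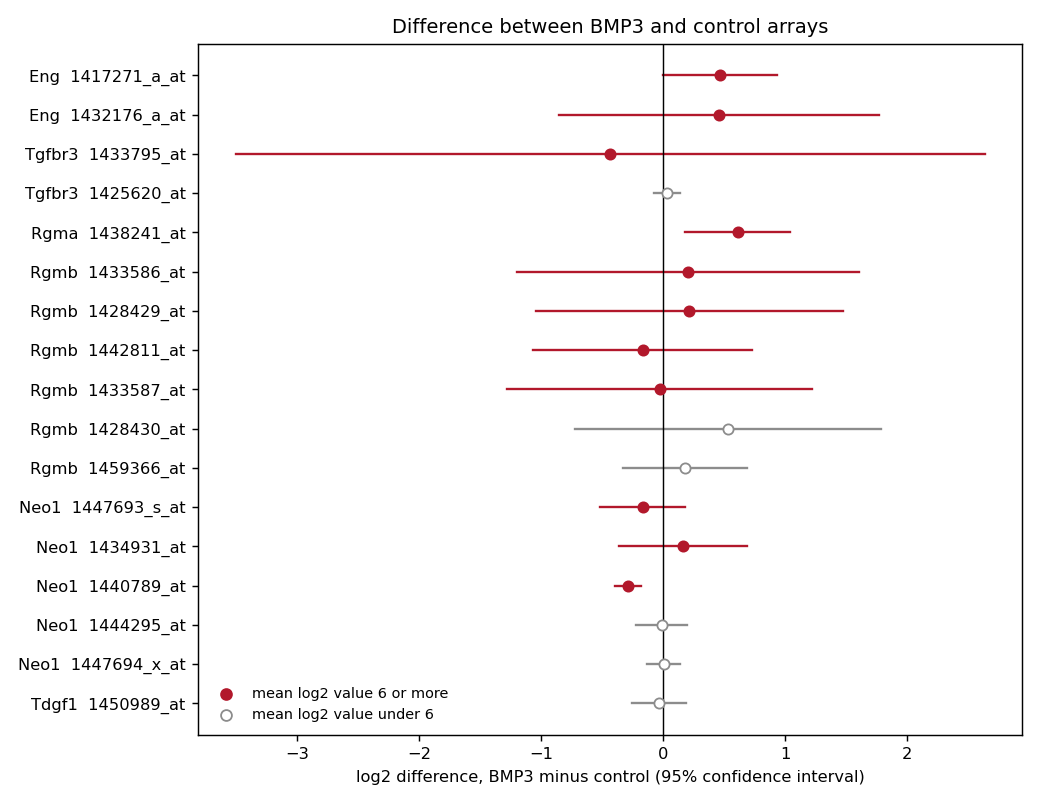
Log2 difference, BMP3 minus control, of the 17 co-receptor probe sets with 95% confidence intervals from limma; filled points have a mean log2 value of at least 6 and open points a lower one. The intervals of Rgma and of Neo1 1440789_at exclude 0 before adjustment, and the Tgfbr3 interval spans -3.50 to 2.64.

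The patterns most like those of the 5 genes with a bright probe set were sought among the brightest probe sets of other bright genes, by the Euclidean distance between log2 values centred on their own mean over the 4 arrays. For Rgma the nearest were Cyth3 and Fbxo5 (distances of 0.068 and 0.076 log2 units). Cyth3 read 12.55 and 12.45 in BMP3 arrays and 11.71 and 11.99 in control arrays. For Eng they were Tmem160 and Ap3m1 (0.031 and 0.036). For Tgfbr3 they were Tmem140 (0.24), at 8.99 and 6.85 in BMP3 arrays and 9.06 and 7.52 in control arrays, and Plat (0.30). For Rgmb they were Racgap1 and Gpd2 (0.15 and 0.16) and for Neo1 Ttc14 and Polr3f (0.022 and 0.025). With 4 arrays a close match is easily found, since 177 to 975 of 9184 genes had a Pearson correlation over 0.9 with one of these members.

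The rest of the pathway was described from 6 lists holding 66 measured genes, each at its brightest probe set. At an unadjusted p under 0.05, limma counted 2 higher and 5 lower, 10.6% of the 66 beside 9.8% of all 18193 genes (5.28% higher and 4.52% lower), and 0 passed the adjusted threshold. Of the 66, 22 were higher and 44 lower (33.3% higher), beside 7708 higher and 10485 lower of all genes (42.4% higher). Of all bright genes, 4899 were higher and 4286 lower. Direction counts below also include any genes under the median of every array, which are not read as differences. By median log2 difference the co-receptors stood at 0.08 (3 higher, 3 lower), beside -0.01 over all genes. Without BMP3 replicate 1 the co-receptor median was -0.14, and without BMP3 replicate 2 it was 0.48.

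The kinases to which co-receptors pass ligand were described next. Of the 12 type I and type II receptor genes, 3 were higher and 9 lower (25% higher, beside 42.4% of all genes). Their median log2 difference was -0.04, and 0 had an unadjusted p under 0.05 by limma at the brightest probe set. The 4 of smallest p included Acvr1b, an activin type I receptor, at -0.32 ± 0.33 (SE), Acvr2a, an activin type II receptor, at -0.12 ± 0.12, and Bmpr1a, a BMP type I receptor, at -0.03 ± 0.04. All 4 bright Bmpr1a probe sets were lower on both BMP3 arrays, with differences of -0.32 to -0.03, and 1425493_at (-0.24) had an unadjusted p of 0.0486 (limma adjusted p = 0.591). These 4 read the same RNA samples, and the groups did not overlap at 48.6% of all bright probe sets. At the brightest, 1425492_at, BMP3 replicate 2 (11.7105) lay just under control replicate 2 (11.7112). The fourth, Acvr2b, stood below the median of every array. So did Acvrl1, which encodes ALK1, the type I receptor that works with endoglin in endothelium, as did Bmpr1b and Amhr2.

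Of 15 measured genes for ligands that co-receptors bind, 5 were higher and 10 lower (median -0.0081), with 1 at an unadjusted p under 0.05. This was Tgfb2, the isoform that depends most on betaglycan, which read 7.77 and 7.89 in BMP3 arrays and 8.87 and 8.74 in control arrays. Its 3 bright probe sets differed by -1.37 to -0.81 (limma adjusted p = 0.224 for the brightest). The activin subunit genes Inhba (1.24 ± 0.65, log2 difference ± SE) and Inhbb (0.96 ± 0.48) had higher means, and Inha, the inhibin alpha subunit, a lower one (-0.30 ± 0.17). Inhba read 10.51 and 11.74 in BMP3 arrays and 9.34 and 10.42 in control arrays, so replicate 2 was the higher array in each group. Bmp4 and Tgfb3 were the brightest of the list, averaging 13.61 and 11.12, and their groups overlapped. Bmp10, an endoglin ligand, and Nodal and Gdf3, ligands that use Cripto, stood below the median of every array, as did Tgfb1, Bmp2, Bmp5, Bmp6 and Bmp7. Probe sets with several symbols were left out of these readings, so a dim reading does not show that a gene was silent.

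Among 13 measured genes for other co-receptors and binding partners, 10 of them bright, 4 had an unadjusted p under 0.05 by limma. That is 30.8% of the 13, beside 9.8% of all genes. All 4 were among the 10 bright ones, and 18.2% of all bright genes passed that threshold. Gpc1, a glypican that binds Cripto, read 11.15 and 11.13 in BMP3 arrays and 10.46 and 10.57 in control arrays (difference 0.62 ± 0.06, limma adjusted p = 0.247). Cav1, the caveolar protein caveolin-1, read 12.71 and 12.42 in BMP3 arrays and 11.82 and 11.99 in control arrays (0.66 ± 0.13, limma adjusted p = 0.407). Both were higher on each BMP3 array. Lower on each BMP3 array were Nrp2, a neuropilin, at 9.81 and 9.64 in BMP3 arrays and 11.03 and 10.43 in control arrays, and Tmeff1, which encodes a transmembrane protein that binds Cripto, at 8.88 and 9.08 in BMP3 arrays and 9.50 and 9.65 in control arrays. The log2 differences were -1.01 ± 0.25 for Nrp2 and -0.59 ± 0.10 for Tmeff1 (limma adjusted p of 0.470 and 0.361), and every bright probe set of both genes was lower (3 and 2 probe sets). Hjv, the third repulsive guidance molecule, known as hemojuvelin, stood below the median of every array.

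Of the 11 genes for neogenin partners and netrins, 3 were higher and 8 lower (median -0.04). Of these, 4 stood below the median of every array. The 6 bright ones (2 higher, 4 lower) had a median of -0.44, beside 0.02 over all bright genes. Cdon and Boc, related cell-surface proteins that associate with neogenin and are also Hedgehog co-receptors, were lower. Cdon read 10.32 and 10.51 in BMP3 arrays and 10.96 and 11.14 in control arrays (unadjusted p of 0.00855, limma adjusted p = 0.355). Boc read 8.74 and 7.49 in BMP3 arrays and 10.03 and 9.37 in control arrays at its brightest probe set. The log2 difference there was -1.59 ± 0.56 (limma adjusted p = 0.634). At its other bright probe set, 1427516_a_at, the difference was -1.21 ± 0.69 and the groups overlapped. The netrin receptor genes Unc5b and Unc5c differed by 0.69 ± 0.38 and -0.72 ± 0.40. The netrin receptor gene Dcc, a relative of Neo1, stood below the median of every array.

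Of 7 measured genes for proteases that shed or process co-receptors and ligands, 2 were higher and 5 lower (median -0.08, or -0.26 to 0.050 with 1 array left out). Pcsk6, a proprotein convertase that cleaves ligand precursors, read 7.21 and 7.42 in BMP3 arrays and 8.41 and 8.78 in control arrays, which differ by -1.28 ± 0.17 on the log2 scale (limma adjusted p = 0.301). Its relative Furin differed by 0.22 ± 0.12, Psen2, of the gamma-secretase complex, by -0.14 ± 0.18, and the sheddase gene Adam10 by -0.08 ± 0.09 at its brightest probe set and by -0.87 at another. Among 8 SMAD genes, 4 were higher and 4 lower (median -0.07), and 0 had an unadjusted p under 0.05 by limma. Smad2 (0.37 ± 0.16) had a higher mean in BMP3 arrays, and Smad4, the shared partner (-0.21 ± 0.07), and the inhibitory Smad6 (-0.44 ± 0.16) and Smad7 (-0.47 ± 0.19) had lower ones. The other bright probe set differed by 0.067 for Smad2 and by -0.022 for Smad7.

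**Figure D4:**
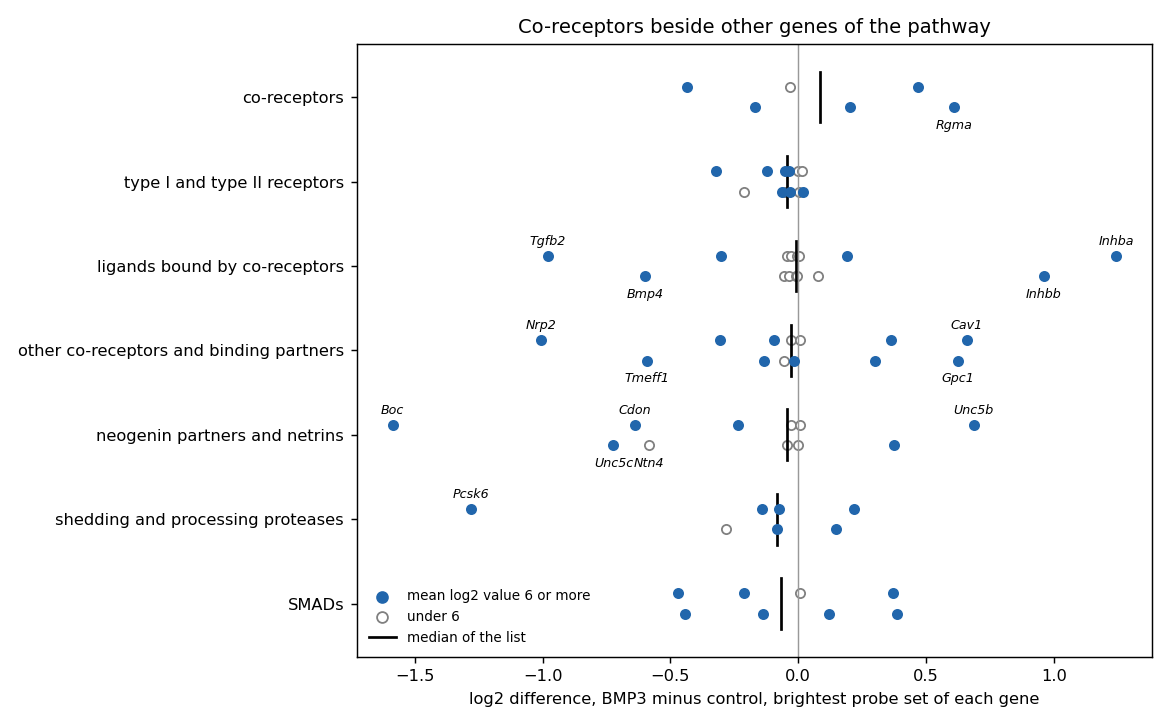
Log2 difference, BMP3 minus control, of the brightest probe set of each gene in the co-receptor group and 6 other lists of the pathway; filled points have a mean log2 value of at least 6, the bar is the list median, and genes far from 0 are named. List medians lie between -0.08 and 0.08, while single genes run from -1.59 (Boc) to 1.24 (Inhba).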

How the data were processed

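Biotin-labelled cRNA from 4 samples was hybridised to Affymetrix arrays, per the labels. The authors deposited 1 value for each probe set on each array, which was read as a log2 value from its range. How the authors made these log2 values (log base, background correction, normalization, probe summary) is not given in the sources used here, apart from the name Partek in the submitters' processing notes. Another base would change each fold.

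Values were used unchanged, and 64 control probe sets were left out. Of 45037 probe sets, 34945 had 1 symbol in the platform annotation, 932 several and 9160 none listed. A few list members were not analysed here. Groups came from the sample titles. The test was limma's (version 3.58.1, R 4.3.3), moderated and two-sided, and p-values were adjusted by Benjamini-Hochberg across the whole table. Gene coordinates and promoters are RefSeq's for GRCm38.p6, matched by gene identifier or symbol. The number of arrays limits the precision. An exact permutation test of 2 arrays against 2 cannot go below p = 0.333.

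The members and lists were chosen with earlier results of these data known. Named genes were all members, the 4 of smallest p in each of 6 lists, and the 2 nearest in pattern to each bright member (Pearson correlation over 0.9). Others were named after their values were seen. Alternatives were a replicate block, each array left out, other scalings, priors and filters, a linear offset of 16, and the mean of all probe sets of a gene.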

Additional observations from a re-analysis of the deposited data

How the results depend on the processing

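No co-receptor probe set passed an adjusted p of 0.05 under limma with any of the alternatives, and Rgma and Eng 1417271_a_at were higher in BMP3 arrays under each. The count at an unadjusted p under 0.05, 2 of 17, was 1 with bright probe sets only, 1 with a trend and robust prior and 1 with an ordinary linear model, and 2 to 7 with 1 array left out. With a fold of 1.5 as well it was 0 with the ordinary model and 0 to 4 with 1 array left out. A replicate block gave 3 probe sets, adding Eng 1417271_a_at (unadjusted p of 0.0170, limma adjusted p = 0.216), while over all probe sets it gave 6701 against 3779. In the fit of bright probe sets only, 11 members were tested, and 12.9% of all bright probe sets passed the unadjusted threshold. The share of all probe sets was 6.68% with the trend and robust prior, 5.1% with the ordinary model and 8.39% in the main fit. Leaving 1 array out leaves 1 array in a group, so the counts from those fits are not read as results. Over bright probe sets the replicate differences of the 2 groups correlated at r = 0.596 across probe sets, which are not replicates; the labels do not say that the numbers pair arrays.

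With 1 array left out, differences turned direction within the ranges -0.075 to 0.99 (Eng 1432176_a_at), -1.53 to 0.66 (Tgfbr3 1433795_at), -0.37 to 0.77, -0.30 to 0.72, -0.53 to 0.47, -0.52 to 0.18 and -0.017 to 0.38 (Rgmb 1433586_at, 1428429_at, 1433587_at, 1442811_at and 1459366_at), -0.0034 to 0.33, -0.075 to 0.053 and -0.031 to 0.036 (Neo1 1434931_at, 1444295_at and 1447694_x_at) and -0.093 to 0.026 (Tdgf1). Of these, Neo1 1447694_x_at and Tdgf1 lay below every array's median. Quantile normalization, median centring and cyclic loess gave 0.15, 0.028 and 0.025 for Neo1 1444295_at. The first of these gave 0.031 for Rgmb 1433587_at, and median centring gave 0.0091 for it and 0.0052 for Tdgf1. The cause was not tested.

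List medians lay near 0 and moved with single arrays, from -0.14 to 0.48 for co-receptors, -0.062 to 0.0035 for receptors, -0.039 to -0.0054 for ligands, -0.068 to 0.012 for other co-receptors, -0.075 to -0.011 for neogenin partners, -0.26 to 0.050 for proteases and -0.074 to -0.013 for SMADs. Median centring gave 0.031 for ligands, 0.011 for other co-receptors, -0.0036 for neogenin partners and -0.027 for SMADs. Bright genes alone gave -0.055, -0.056, -0.44 and -0.14 in that order. For neogenin partners quantile normalization and cyclic loess gave -0.021 and -0.022 and the offset -0.012, and the mean of all probe sets gave -0.036 for SMADs.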
